A study of Homo sapiens with 6 samples.

Results

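The *SMAD* and *TGIF* genes, 10 in all, were followed in large physaliferous and small non-vacuolated cells of the chordoma line MUG-Chor1, which derives from a tumor of the sacrum and coccyx. Chordoma is a tumor of the axial skeleton with features of the notochord, and its large cells carry the vacuoles for which they are called physaliferous. No treatment was given. Cells grown with serum were detached with trypsin and, per the methods, picked by micromanipulation in pools of 20, whose RNA was amplified to cDNA and read on 1 Affymetrix Human Gene 1.0 ST array per pool. Large pools 2, 3 and 4 were set against small pools 5, 6 and 7, so each phenotype had 3 arrays and both came from a single line. The methods describe picking in quadruplicate, and 3 arrays of each phenotype were analysed here. The genes are *SMAD1* to *SMAD7*, *SMAD9*, *TGIF1* and *TGIF2*, 10 of the 18404 genes with a probe set that carries a single gene symbol. They were found by exact match of the symbol, which gave 15 probe sets. For each gene the probe set with the highest mean over all 6 arrays was kept, so the mean levels chose the probe sets and are given only as a description. *TGIF1* was singled out by earlier results of this same contrast, and its difference is therefore described without a test.

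SMAD proteins carry signals of the TGF-beta family from the receptors to the nucleus. SMAD2 and SMAD3 are phosphorylated by TGF-beta and activin receptors, SMAD1, SMAD5 and SMAD9 by receptors for bone morphogenetic proteins (BMP), and both branches join SMAD4 to bind DNA. SMAD6 and SMAD7 inhibit the receptors and are themselves induced by the pathway, and the homeodomain proteins TGIF1 and TGIF2 repress the transcription that SMAD2 and SMAD3 drive. The notochord itself secretes the BMP antagonists chordin and noggin.

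Signals are log2 expression values after robust multi-array averaging (RMA), that is background correction, quantile normalization and summary of the probes of a set. A log2 value of 6.64, the log2 of 100, served as expression floor, below which a signal was not told apart from background. Signals of different probe sets cannot be ranked against each other. Array medians were 6.64 to 6.68 for large and 6.73 to 6.76 for small cells, and over all genes the median log2 fold change was -0.11. Centring each array on its median moved that to -0.03. Whether the pools had separate cultures as their origin is not stated, and the p-values reflect nothing but the scatter among these pools, which may be technical. A gene carried by fewer of the 20 cells and a gene at a lower level in each cell cannot be told apart. Of 15 notochord and chordoma markers 13 were above the floor in every array, among them brachyury (*TBXT*). In large cells 6 of the 15 were higher and 9 lower, with a median difference of -0.05 on the log2 scale. *TBXT* differed by 0.06, *COL2A1* by -0.43 and *FOXA1* by -0.36 (adjusted p from limma 0.75, 0.32 and 0.33). Of 9 leukocyte markers 3 (*PTPRC*, *MS4A1* and *LYZ*) were below it in every array, and *CD68* and *NKG7* were above it in every array. *CD68*, a lysosomal protein of macrophages that other cells also make, was 0.60 higher in large cells on the log2 scale (adjusted p from limma 0.33). Another leukocyte marker, *CSF1R*, went the other way without overlap, with large minus small at -0.33 (limma, adjusted p 0.32). It was above the floor only in small pool 5. Of the 9 leukocyte markers 3 were higher and 6 lower in large cells, and the median of their differences was -0.04. Of 7 endothelial markers 5, with *PECAM1*, *CDH5* and *VWF* among them, were below the floor in every array, and *KDR* and *CLDN5* were above it in every array. Of 11 fibroblast markers, 4 (*DCN*, *FAP*, *PDGFRA* and *POSTN*) were below the floor in every array. Above it in every array were 5 (*COL1A1*, *COL1A2*, *COL3A1*, *COL6A3* and *THY1*). The mean log2 signal over the list was 6.65 to 6.74 in large and 6.79 to 7.05 in small pools. Of the 11 fibroblast markers 1 was higher and 10 were lower in large cells, with a median difference of -0.11. *THY1* had the smallest p, with large minus small at -0.47 (adjusted p from limma 0.34). Whether the differences in these markers play a part in the values below was not tested.

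Of the 10 genes, 6 were above the floor in every array, and *SMAD5*, *SMAD6* and *TGIF1* were above it in some. *SMAD7* was below it in all 6 arrays. Large minus small was tested with limma over all 18404 genes and adjusted by Benjamini-Hochberg. The methods set both an adjusted p below 0.05 and a change beyond 1 on the log2 scale. By limma 0 of the 18404 genes passed both thresholds (0%), and so did 0 of the 9 members other than *TGIF1*. At an unadjusted p under 0.05 from limma were 2731 genes (14.8%), and of these 797 (4.33%) were higher and 1934 (10.5%) lower in large cells. This balance turned with the scaling, since arrays centred on their medians gave 1207 higher and 718 lower. Among the 9 members, *SMAD5* was on the higher and *TGIF2* on the lower side at this level. With 3 pools on each side, an exact two-sided permutation p cannot be smaller than 0.1. A log2 fold change below 0 was found in 4 of the 10 members and in 66.4% of all genes, or 54.4% of all genes after centring. An absolute log2 fold change above 1 was found in 2.24% of all genes, and among the members in *SMAD5* and *TGIF1*.

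**Figure D1:**
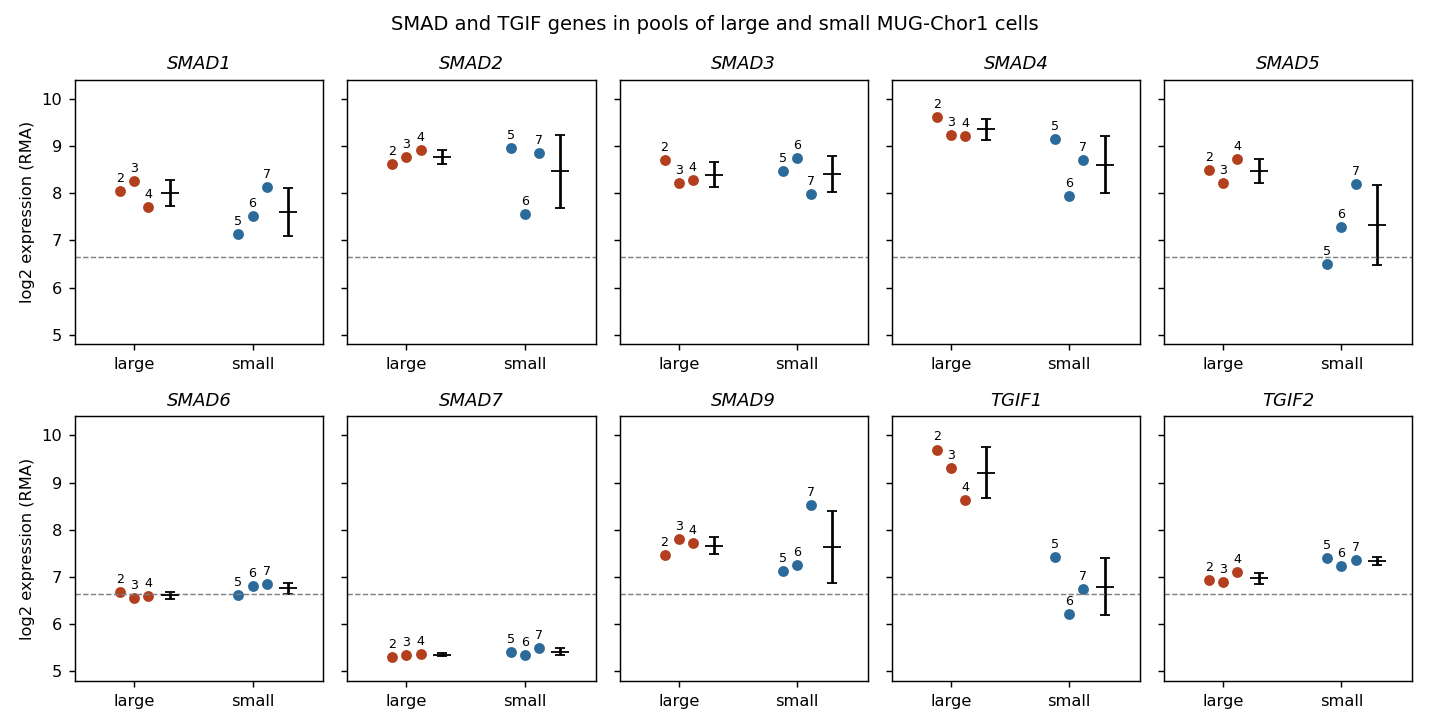
Log2 expression (vertical axis, the same in all panels) of the kept probe set of each gene in the 3 large and the 3 small pools. Points are pools with their numbers, black marks are means with SDs (n = 3 pools), and the floor of 6.64 is dashed. *TGIF1*, *SMAD4* and *SMAD5* have all large pools above all small pools, *TGIF2* has all large pools below, and *SMAD7* lies below the floor throughout.

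The transducers of the BMP branch were each above the floor in all large pools, and *SMAD1* and *SMAD9* in all small pools too. *SMAD5* had log2 values of 8.48, 8.21 and 8.72 in large pools 2, 3 and 4, against 6.51, 7.27 and 8.19 in small pools 5, 6 and 7. The groups did not overlap, but the gap between the lowest large and the highest small pool was narrow, and small pool 5 was below the floor. *SMAD5* averaged 8.47 ± 0.25 in large and 7.32 ± 0.84 in small cells (SD, n = 3 pools each), a log2 fold change of 1.15 (95% confidence interval 0.13 to 2.16). The adjusted p from limma was 0.33. Without small pool 5 the log2 fold change was 0.74 and without small pool 7 it was 1.58.

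*SMAD1* had log2 values of 8.04, 8.25 and 7.71 in large pools 2, 3 and 4, against 7.14, 7.52 and 8.13 in small pools 5, 6 and 7. Small pool 7 lay within the range of the large pools, and the other small pools lay below it. The log2 fold change was 0.40 (interval -0.28 to 1.08, adjusted p from limma 0.46). *SMAD9* had log2 values of 7.47, 7.81 and 7.72 in large pools 2, 3 and 4, against 7.13, 7.25 and 8.51 in small pools 5, 6 and 7. Here small pool 7 exceeded every large pool, and the log2 fold change was 0.03 (interval -0.88 to 0.95, adjusted p from limma 0.97). For *SMAD1*, *SMAD5* and *SMAD9* alike, small pool 7 was the highest and small pool 5 the lowest of the small pools, while the large pools had no such common order. The same small pools were highest and lowest for the inhibitory *SMAD6*, so this is not particular to the transducers of the BMP branch. Another order, with small pool 5 highest and small pool 6 lowest, was shared by *SMAD2*, *SMAD4*, *TGIF1* and *TGIF2*. How many of all genes have either order was not counted.

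For the transducers of the TGF-beta and activin branch no difference was resolved. Their confidence intervals were too wide to show that the phenotypes were alike. *SMAD3* had log2 values of 8.69, 8.22 and 8.27 in large pools 2, 3 and 4, against 8.47, 8.74 and 7.99 in small pools 5, 6 and 7. The ranges overlapped almost fully, and the log2 fold change was -0.01 (interval -0.57 to 0.55, adjusted p from limma 0.99). *SMAD2* had log2 values of 8.61, 8.76 and 8.91 in large pools 2, 3 and 4, against 8.96, 7.57 and 8.85 in small pools 5, 6 and 7. Small pool 6 was lower than the other 5 pools. The log2 fold change was 0.30 (interval -0.61 to 1.22, adjusted p from limma 0.67), and without small pool 6 it was -0.14. A further probe set of *SMAD2* had 9.42, 8.21 and 6.20 in large pools 2, 3 and 4, against 9.06, 7.57 and 8.59 in small pools 5, 6 and 7. It ranged from the highest value of its 6 arrays in large pool 2 to below the floor in large pool 4, and its log2 fold change was -0.46 (interval -2.52 to 1.59). Both probe sets of *SMAD2* thus had their lowest small value in pool 6, but they differed in the sign of the contrast.

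*SMAD4*, the common partner of both branches, had log2 values of 9.61, 9.24 and 9.20 in large pools 2, 3 and 4, against 9.14, 7.94 and 8.71 in small pools 5, 6 and 7. Every large pool was above every small pool, with small pool 5 close to the large pools and small pool 6 farthest from them. *SMAD4* averaged 9.35 ± 0.23 in large and 8.60 ± 0.61 in small cells (SD, n = 3 pools each), a log2 fold change of 0.75 (interval -0.01 to 1.51, adjusted p from limma 0.34). Without small pool 6 the log2 fold change was 0.43.

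The inhibitory SMADs gave signals around or below the floor, with little spread between pools. *SMAD6*, which acts mainly on BMP signals, had log2 values of 6.69, 6.56 and 6.59 in large pools 2, 3 and 4, against 6.62, 6.81 and 6.85 in small pools 5, 6 and 7. Large pool 2 and small pools 6 and 7 were above the floor, each by little. The log2 fold change was -0.15 (interval -0.40 to 0.11, adjusted p from limma 0.47), near the median of all genes. *SMAD7*, which inhibits both branches, had log2 values of 5.32, 5.35 and 5.38 in large pools 2, 3 and 4, against 5.42, 5.34 and 5.50 in small pools 5, 6 and 7. It was below the floor in all pools, so its log2 fold change of -0.07 (interval -0.29 to 0.15, adjusted p from limma 0.69) is a difference between background signals and no level of *SMAD7* can be given. With the arrays centred on their medians it was 0.02.

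Sequence upstream of *SMAD6* is shown because the gene is a known feedback target of the SMADs. All 10 genes had an entry in the RefSeq promoter table of GRCh38.p14. The motifs searched on both strands were GTCTAGAC (the palindromic SMAD element), CAGAC (the core of the CAGA box bound by SMAD3 and SMAD4) and TGTCA (the core bound by TGIF proteins), none of which contains another. In the 250 bases before the start of *SMAD6* at chr15:66701986-66702235 (plus strand) GTCTAGAC began 12 bases and TGTCA 188 bases before the start, both in capitals.
SMAD6: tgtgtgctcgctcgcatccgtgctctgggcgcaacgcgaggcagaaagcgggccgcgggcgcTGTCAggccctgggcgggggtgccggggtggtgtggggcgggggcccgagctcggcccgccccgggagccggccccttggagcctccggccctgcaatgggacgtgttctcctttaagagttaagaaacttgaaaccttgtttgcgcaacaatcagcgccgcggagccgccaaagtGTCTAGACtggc
Of 35116 such windows in RefSeq, GTCTAGAC was found in 0.182%, CAGAC in 38% and TGTCA in 34%. Of the 28 windows of the 10 genes, GTCTAGAC was found in 1, CAGAC in 9 and TGTCA in 10. A match describes these letters only and says nothing of binding in these cells.

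The repressor *TGIF2* was lower in large cells, without overlap of the groups. It had log2 values of 6.93, 6.89 and 7.10 in large pools 2, 3 and 4, against 7.40, 7.24 and 7.36 in small pools 5, 6 and 7, all above the floor. The pools of each phenotype lay close together. *TGIF2* averaged 6.97 ± 0.11 in large and 7.33 ± 0.08 in small cells (SD, n = 3 pools each), a log2 fold change of -0.36 (interval -0.62 to -0.10). The adjusted p from limma was 0.32, and with the arrays centred on their medians the log2 fold change was -0.28. It kept its sign when any pool was left out, between -0.42 and -0.32. Groups did not overlap in 27.0% of all genes. Large lay below small in 21.6% of all genes and above small in 5.48%. Of the 9 members other than *TGIF1*, *TGIF2* was below and *SMAD4* and *SMAD5* were above without overlap.

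*TGIF1* was read by 5 probe sets, which gave opposite answers. The kept probe set (8180319, annotated to transcript NM_174886) had log2 values of 9.70, 9.30 and 8.63 in large pools 2, 3 and 4, against 7.42, 6.21 and 6.75 in small pools 5, 6 and 7. All large pools were far above all small pools, and small pool 6 was below the floor. It averaged 9.21 ± 0.54 in large and 6.79 ± 0.61 in small cells (SD, n = 3 pools each), a difference of 2.42 on the log2 scale, given here as a description. In small cells probe set 8180316 had a higher mean, 7.48, but in large cells a lower one, 6.85. The kept probe set thus had the highest mean over all arrays through the large pools, so its choice and its difference are not independent.

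The other 4 probe sets of *TGIF1* had differences below 0 over all pools, 1 of them through a single pool. Probe set 8180316 (NM_173209) had 7.12, 6.44 and 6.99 in large pools 2, 3 and 4, against 7.65, 7.86 and 6.93 in small pools 5, 6 and 7, a difference of -0.63 with overlapping groups. Probe set 8180317 (NM_173210) had 5.07, 5.13 and 5.21 in large pools 2, 3 and 4, against 6.11, 5.54 and 6.07 in small pools 5, 6 and 7. It was lower in every large pool, by 0.77 in the mean, but below the floor in all arrays. Probe set 8180318 (NM_173211) had 4.54, 4.12 and 3.31 in large pools 2, 3 and 4, against 3.89, 10.01 and 3.68 in small pools 5, 6 and 7. Only small pool 6 was above the floor here, and the difference of -1.87 rests on that pool, being 0.21 without it. Small pool 6 was thus the lowest small pool by the kept probe set and the highest by this one.

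The probe set annotated to the most transcripts of *TGIF1* (8019939, with 7 accessions) had 6.55, 6.42 and 6.61 in large pools 2, 3 and 4, against 6.76, 6.63 and 6.62 in small pools 5, 6 and 7. It stayed at or just under the floor except in small pool 5, with a difference of -0.15. With the mean of the 5 probe sets in place of the kept one, the difference was -0.20. The number and position of the probes in each set are not given in the sources used here, so which transcript each signal came from was not tested.

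Probe sets of opposite sign were common, in 232 of 637 genes (36.4%) with 2 or more probe sets of a single symbol, and the width of the disagreement varied. The median range of the log2 fold change among the probe sets of a gene was 0.27, and *TGIF1* had a range of 4.29. Since *TGIF1* was singled out by this same contrast, its range is a description and its place among other genes is no result. The lower end of the range, -1.87, rests on small pool 6. A range grows with the number of probe sets, and among the 9 genes with 5 or more the median range was 1.17, the widest besides *TGIF1* being 3.16. Without small pool 6 the range of *TGIF1* was 3.08, and 2 of the 637 genes, *TGIF1* included, had a range at least that wide. Without large pool 4 the range of *TGIF1* was 4.24, and another of the 9 genes had a wider one of 5.76. The range of 0.77 for *SMAD2* was reached or passed by 15.4% of the 637 genes.

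**Figure D2:**
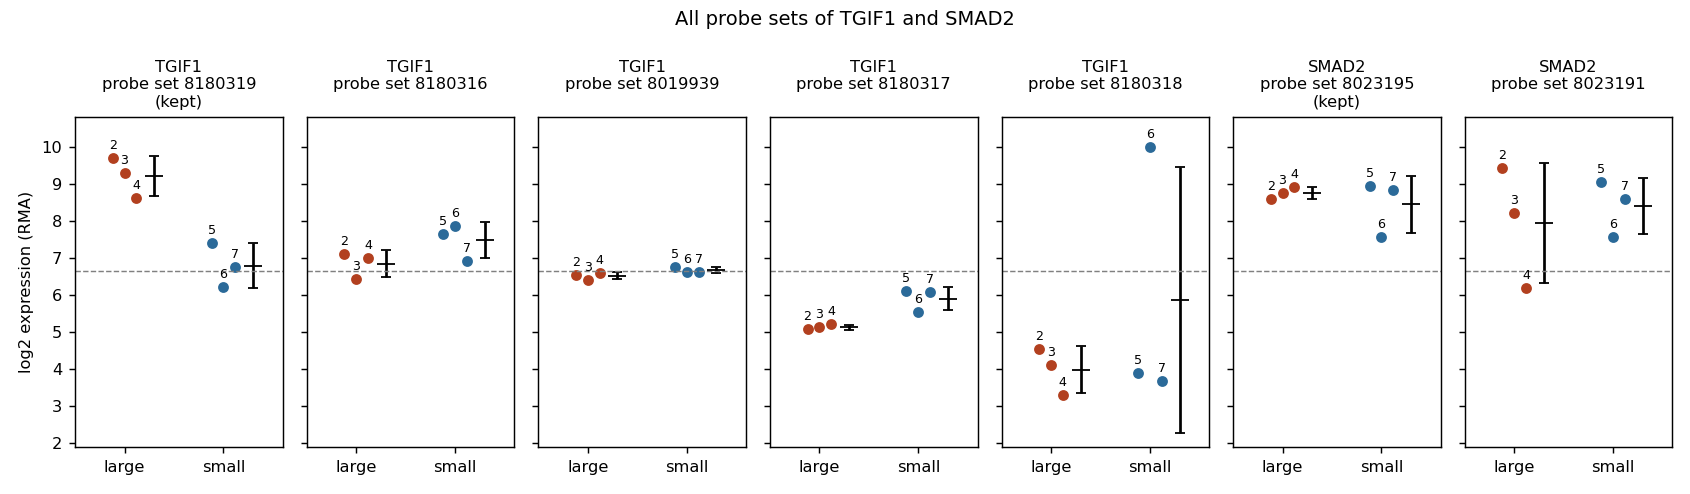
Log2 expression (vertical axis) of the 5 probe sets of *TGIF1* and the 2 of *SMAD2* in each pool, with pool numbers, means and SDs (n = 3 pools) and the expression floor as a dashed line. Large pools are above small pools for the kept *TGIF1* probe set and not for the others, and small pool 6 stands at 10.01 in probe set 8180318.

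**Figure D3:**
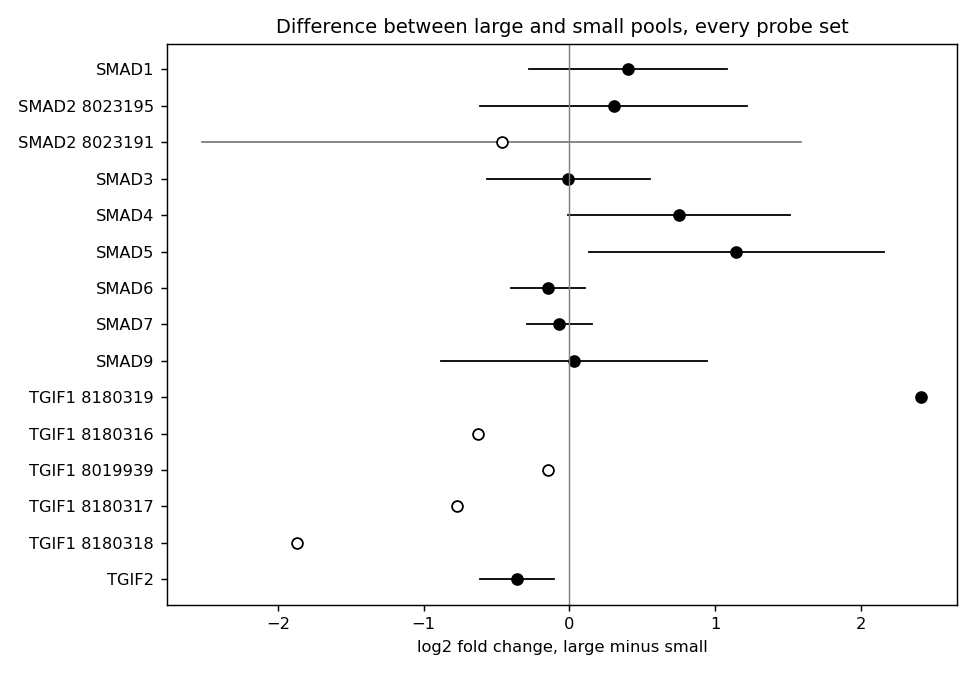
Log2 fold change of large minus small (horizontal axis) for the 15 probe sets. Filled points are the kept probe sets and open points the others, lines are 95% confidence intervals from limma (3 pools against 3), and *TGIF1* is drawn without intervals because it was chosen on this contrast; its kept probe set lies at 2.42 and its others between -1.87 and -0.15.

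RefSeq gives *TGIF1* 7 start sites, the most of the 10 genes, against 5 each for *SMAD1* and *SMAD3*, 3 for *SMAD7*, 2 each for *SMAD2* and *TGIF2* and 1 for each of the other 4. Sequence at its farthest upstream start is shown because the probe sets of *TGIF1* are annotated to different transcripts. In the 250 bases before that start, at chr18:3411759-3412008 of GRCh38.p14 (plus strand), CAGAC, in capitals, began 224 and 40 bases before the start.
TGIF1: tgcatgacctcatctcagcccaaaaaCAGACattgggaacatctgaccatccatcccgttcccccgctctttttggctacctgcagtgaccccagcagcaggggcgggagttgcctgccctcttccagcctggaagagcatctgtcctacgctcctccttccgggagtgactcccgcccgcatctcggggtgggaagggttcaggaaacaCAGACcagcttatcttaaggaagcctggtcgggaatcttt
The table does not tie the start sites to the transcripts of the probe sets. *TGIF1* lies on chromosome 18, as do *SMAD2*, *SMAD4* and *SMAD7*, whose log2 fold changes were 0.30, 0.75 and -0.07.

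The genes nearest to the kept *TGIF1* probe set in pattern were *IL18*, *SLC30A4* and *CRYZ*. Likeness was the root mean square difference of the log2 values over the 6 arrays after each gene was centred on its own mean, among 11693 genes above the floor in at least 2 arrays. It was 0.32 for *IL18*, a cytokine of the interleukin-1 family, 0.39 for *SLC30A4*, a zinc exporter, and 0.46 for *CRYZ*, a quinone reductase. *IL18* had 7.79, 7.999 and 7.44 in large pools 2, 3 and 4, against 6.50, 5.17 and 5.36 in small pools 5, 6 and 7, below the floor in every small pool. These genes were picked for this likeness, so their difference between the phenotypes is no further result.

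Pools of small cells varied more than pools of large cells in most of the family. The SD was larger among the small pools in 9 of the 10 genes, *TGIF2* being the exception, against 47.1% of all genes. Of the 6 members above the floor in every array it was larger in 5, against 53.2% of the 7990 genes above the floor in every array. Over these 6 members the median SD was 0.20 in large and 0.55 in small pools, whereas over those 7990 genes it was 0.17 in large and 0.18 in small pools. These are SDs of 3 pools and the genes share their pools, so no test was made. Among the small pools the SD was largest for *SMAD5*, *SMAD2* and *SMAD9*, with SDs of 0.25, 0.15 and 0.18 in large pools and of 0.84, 0.77 and 0.77 in small pools.

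Around the SMADs, 155 genes of 10 pathway lists were measured, and 0 passed both thresholds by limma. An unadjusted p under 0.05 was reached upward in large cells by 5 and downward by 21, and the median log2 fold change was -0.12, near the -0.11 of all genes. The lists were written with earlier results of these data known, and their counts are set against the 4.33% of all genes that were higher and the 10.5% that were lower.

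Of 13 receptors 1 was higher and 0 were lower at this level (median log2 fold change -0.05). *ACVR2A*, a type II receptor for activins, had 9.17, 8.52 and 7.99 in large pools 2, 3 and 4, against 5.84, 6.74 and 6.54 in small pools 5, 6 and 7. All large pools were above the floor and only small pool 6 was, and its adjusted p from limma was 0.32. Of 20 ligands 0 were higher and 3 lower (median -0.16), among them *NODAL* with -0.36 and *GDF6* with -0.36, both below the floor in all arrays. Of 13 extracellular antagonists 1 was higher and 2 were lower (median -0.15). *TWSG1*, which binds BMPs together with chordin, had 7.82, 7.75 and 7.71 in large pools 2, 3 and 4, against 7.05, 7.41 and 6.94 in small pools 5, 6 and 7. Its large pools were all higher and lay within a narrow range. Chordin itself (*CHRD*), a BMP antagonist, had a log2 fold change of -0.34 and the follistatin-like *FSTL3* one of -0.43.

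Of 10 genes for SMAD anchors and nuclear transport 0 were higher and 0 lower, and the smallest p belonged to *HGS* at -0.23 on the log2 scale (adjusted p from limma 0.40). Of 13 co-repressors 0 were higher and 1 was lower (median -0.13). This was *SIN3B*, a scaffold of histone deacetylase complexes, with 6.48, 6.32 and 6.23 in large pools 2, 3 and 4, against 6.75, 6.94 and 6.996 in small pools 5, 6 and 7. It was below the floor in every large pool and above it in every small pool. Of 19 co-activators and DNA-binding partners 0 were higher and 2 lower (median -0.08), *FOXO3* with -0.38 and *FOXH1*, a partner of SMAD2 in activin signaling, with -0.34.

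Of 20 SMAD ubiquitin ligases, deubiquitinases and phosphatases, 2 were higher and 2 lower, with 14 of 20 above 0 and a median of 0.16. Of all 18404 genes 6175 were above 0 as deposited and 8393 after centring, while the list was counted as deposited only. In every array 17 of the 20 were above the floor, against 7990 of all genes, so the list and all genes differ in signal. *UCHL5*, a proteasome-bound deubiquitinase that also acts on TGF-beta receptors, had 8.90, 8.87 and 9.37 in large pools 2, 3 and 4, against 8.52, 8.23 and 8.23 in small pools 5, 6 and 7. *USP4*, a deubiquitinase of the TGF-beta type I receptor, had 8.53, 9.02 and 8.82 in large pools 2, 3 and 4, against 8.48, 8.07 and 7.94 in small pools 5, 6 and 7. In neither did the groups overlap, and the adjusted p from limma was 0.32 for both. On the lower side were *PMEPA1*, an inhibitor of TGF-beta signaling, with -0.28 and the ubiquitin ligase *WWP2* with -0.28.

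In the values as deposited, most target genes had log2 fold changes below 0, 15 of 19 for TGF-beta and 12 of 14 for BMP. So did 66.4% of all genes, a share that depended on the scaling and was 54.4% after centring. The counts of targets are for the values as deposited only. Of 19 TGF-beta targets 0 were higher and 2 lower (median -0.12), *TAGLN*, an actin-binding protein of smooth muscle, with -0.54 and *SNAI1*, a transcription factor of epithelial-mesenchymal transition, with -0.38. *SNAI1* was below the floor in all 6 arrays, so its value is a difference between background signals, and *TAGLN* was above it only in small pool 6. Of 14 BMP targets 0 were higher and 3 lower (median -0.20), among them *ATOH8* with -0.34 and *GATA2* with -0.45, both below the floor in all large pools and above it in 2 of 3 small pools. Of 14 TALE homeobox relatives of the TGIF genes, 1 was higher and 6 were lower (median -0.24). *MEIS2*, a developmental homeobox gene, had 6.74, 6.97 and 6.88 in large pools 2, 3 and 4, against 6.49, 6.51 and 6.34 in small pools 5, 6 and 7. It was above the floor in all large and in none of the small pools. *IRX6* had a log2 fold change of -0.43, and *MKX*, a regulator of tendon development, one of -0.34 below the floor in all arrays. By limma the adjusted p of all genes named from these lists was at least 0.32.

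**Figure D4:**
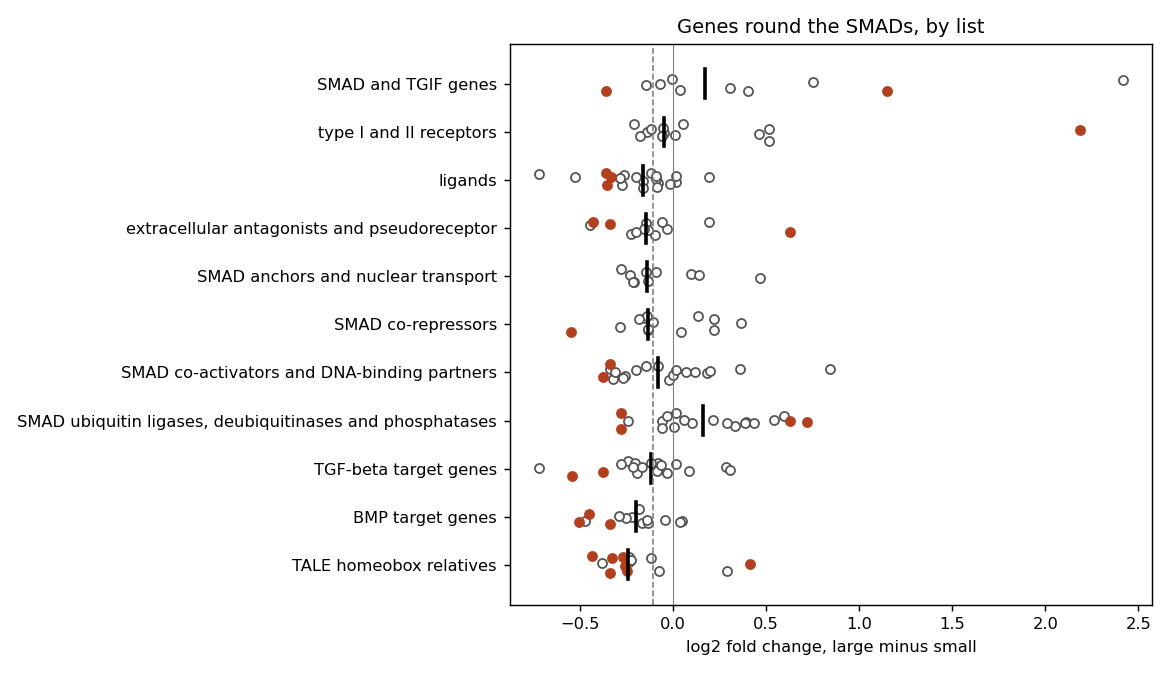
Log2 fold change of large minus small (horizontal axis) for each measured gene of the *SMAD* and *TGIF* family and of 10 pathway lists (rows). Filled points had an unadjusted p under 0.05 from limma (not marked for *TGIF1*), short vertical bars are list medians and the dashed line is the median of all genes at -0.11. Points far to the right are *TGIF1* at 2.42 and *ACVR2A* at 2.19.

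The direction of each gene under other processing and with pools left out is shown in the plot of alternatives. *TGIF1* split into a cluster between 2.13 and 2.73, where the kept probe set was used, and values of -0.20 and -0.15, where the mean of its probe sets or the probe set of most transcripts was used.

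**Figure D5:**
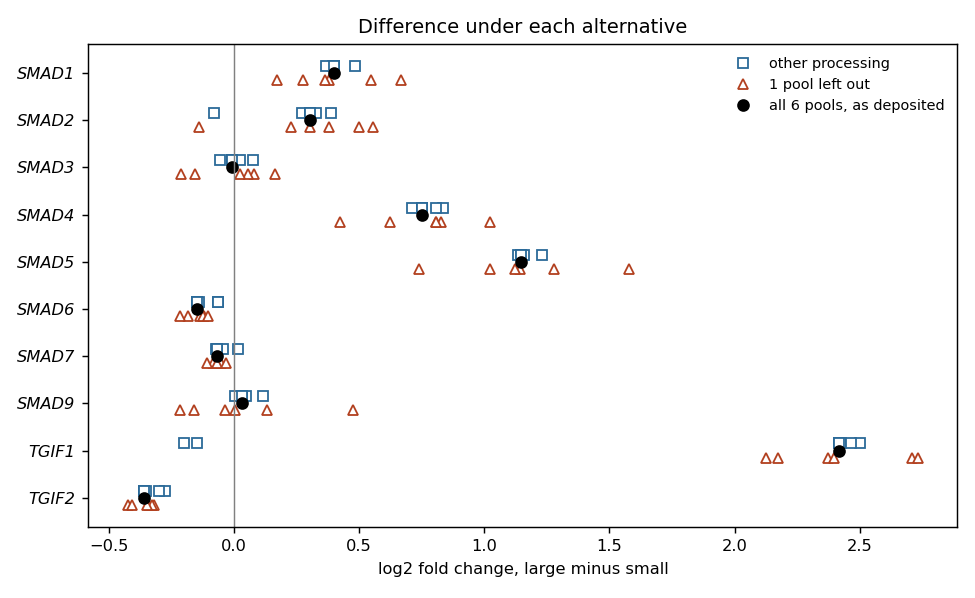
Log2 fold change of large minus small (horizontal axis) of each gene for all 6 pools as deposited (filled), under other processing (squares) and with 1 pool left out (triangles). *SMAD4*, *SMAD5* and *SMAD1* stay above 0 and *TGIF2* and *SMAD6* below it in every setting that tested them, while *SMAD2*, *SMAD3*, *SMAD7*, *SMAD9* and *TGIF1* have values on both sides. Filters and the variance model cannot change a log2 fold change, so their squares repeat the filled point.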

How the data were processed

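Groups were taken from the sample labels, 3 large and 3 small pools. The authors deposited log2 expression values, which the methods describe as RMA from the affy package, while Affymetrix Expression Console is the tool in the submitters' processing notes. The chip definition was not given in the sources used here. RMA normalizes the arrays to each other and so compresses shifts that touch most genes. Precision is limited by the small number of pools.

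In R 4.3.3 with limma 3.58.1, 1 probe set per gene with a single platform symbol was fitted, large minus small, with no covariate and no filter, because the methods give no limits for theirs. Symbols of list genes were updated through RefSeq, where 28 of the 18404 genes had no match. The script was tested on simulated data.

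Members and lists were chosen with earlier results of these data known. Named were all members, per list the 2 genes with the smallest p in each direction at an unadjusted p under 0.05 (otherwise 1 gene), and the 3 genes nearest to *TGIF1* in pattern. Alternatives covered filters, probe set choice, scaling, the variance model, array weights and each pool left out. RT-qPCR, array-CGH and time lapse data were not analysed here.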

Additional observations from a re-analysis of the deposited data

How the results depend on the processing

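Under the 15 alternatives 0 genes passed both thresholds by limma in any. The 10 genes gave 142 values, of which 128 kept their direction, 14 were reversed and 0 passed both thresholds. Many of the 128 could not have differed. Filters, the fit of all probe sets and the variance model leave a log2 fold change as it was. So does the choice of probe set for a gene with a single one. The count is therefore no measure of stability. *SMAD1*, *SMAD4*, *SMAD5*, *SMAD6* and *TGIF2* kept their direction in every alternative that tested them. *TGIF1* was reversed to -0.20 with the mean of all probe sets and to -0.15 with the probe set of most accessions (chosen after seeing the data), and *SMAD2* to -0.080 with the mean of its probe sets. With arrays centred on their medians *SMAD3* was reversed to 0.077 and *SMAD7* to 0.015, and with array weights *SMAD3* was reversed to 0.024. With 1 pool left out the log2 fold changes ran from -0.14 to 0.55 for *SMAD2*, from -0.21 to 0.16 for *SMAD3*, from -0.21 to 0.48 for *SMAD9* and from 2.13 to 2.73 for *TGIF1*. *SMAD2* was reversed without small pool 6, *SMAD9* without large pool 3 or small pool 5 or 6, and *SMAD3* without large pool 3 or 4 or small pool 5 or 6.

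At an unadjusted p under 0.05 were 1757 genes with the floor, 1096 of them lower, and 379 probe sets with the floor and the interquartile range above 0.5, 301 higher and 78 lower. With the floor alone 9 members were tested, and with both filters 3 (*SMAD1*, *SMAD5* and *TGIF1*). Centring gave 1207 higher and 718 lower, so 62.7% were higher against 29.2% as deposited, and quantile normalization gave 1086 lower. With 1 pool left out 1021 to 1591 genes were lower. The range among *TGIF1* probe sets was 3.08 to 5.58 with 1 pool left out (added after seeing the data). The cause was not tested. No paired analysis was possible because the large and small pools share no replicate number.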
